A study of Mus musculus with 6 samples.

Results

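The genes described here encode the proteins of the mitochondrial ribosome. They were taken by name, as all protein-coding genes of the GENCODE M21 mouse annotation whose symbol begins with *Mrpl* or *Mrps* followed by a number, and were matched to the count data by Ensembl identifier. This gave 78 genes, 49 *Mrpl* and 29 *Mrps*, of 54232 identifiers counted. They lie on 17 chromosomes, with 11 of them on chromosome 11. Heart ventricle RNA came from 3 WD (western diet) fed mice given Tributyrin, a triglyceride of butyrate, and from 3 WD-fed mice given vehicle, which the labels name PBS. All 6 were wild-type C57BL/6J mice that had been on WD for 15 weeks before a treatment of 3 weeks, with Tributyrin at 5 g/kg. No age is stated for these mice in the labels. *Xist*, which marks the inactive X chromosome, had 0 to 6 reads in the 6 libraries and the Y-linked *Ddx3y* had 1571 to 2559, the pattern of male mice. No mice on normal chow were among the samples analysed here, so the comparison is between treatments within WD.

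The mitochondrial ribosome translates the few messenger RNAs of the mitochondrial genome, which encode core subunits of the respiratory chain and of ATP synthase. Its ribosomal RNAs are made inside the organelle, while all of its proteins are encoded in the nucleus, translated in the cytosol and imported. Heart muscle, which is rich in mitochondria, depends on this machinery for oxidative phosphorylation. Many of the proteins have a counterpart in the bacterial ribosome and others are found only in mitochondria. The names follow early assignments and are not always a guide to place, since *Mrps18a* encodes a protein of the large subunit and the product of *Mrps36* also belongs to the 2-oxoglutarate dehydrogenase complex.

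Promoters of 69 of the 78 genes were held in a RefSeq table of 32851 mouse promoters (build GRCm38.p6), each with 250 bases before and 50 bases after an annotated start. The promoters were searched on both strands for short cores bound by 3 families of factors known to act at housekeeping and mitochondrial genes. This search was made after the genes were seen to move together from mouse to mouse, as described further on. Whether the cores have a part in that movement was not tested. The cores were GCGCATG for NRF1, CCGGAAG for ETS factors, a family that includes NRF2, and AAGATGG for YY1. The last letters of the ETS core (AAG) are the first of the YY1 core, so that a stretch can hold both, and each core was counted on its own. Of the 75 promoters of these genes 34.7% held the ETS core, against 8.86% of all promoters in the table. The YY1 core was in 17.3% against 6.34%, and the NRF1 core in 10.7% against 3.91%. At least 1 of the 3 was in 50.7% of the promoters of these genes and in 17.5% of all. Median GC content was 58.7% for these promoters and 52.7% for all, and the motif shares were not compared at equal GC. The promoters below belong to the gene with the lowest p among those higher with Tributyrin (*Mrps21*), the gene with the lowest p among those lower (*Mrpl24*), and the genes with the highest (*Mrpl42*) and lowest (*Mrps25*) level per length, with any core in capitals.
*Mrps21* promoter (chr3:95871465-95871764, minus strand): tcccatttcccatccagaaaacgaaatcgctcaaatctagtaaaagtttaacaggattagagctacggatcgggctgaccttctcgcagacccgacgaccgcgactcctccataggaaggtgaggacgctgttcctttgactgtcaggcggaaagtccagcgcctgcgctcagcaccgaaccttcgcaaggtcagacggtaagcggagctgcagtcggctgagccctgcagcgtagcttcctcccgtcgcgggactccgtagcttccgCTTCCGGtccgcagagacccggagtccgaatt
*Mrpl24* promoter (chr3:87919294-87919593, plus strand): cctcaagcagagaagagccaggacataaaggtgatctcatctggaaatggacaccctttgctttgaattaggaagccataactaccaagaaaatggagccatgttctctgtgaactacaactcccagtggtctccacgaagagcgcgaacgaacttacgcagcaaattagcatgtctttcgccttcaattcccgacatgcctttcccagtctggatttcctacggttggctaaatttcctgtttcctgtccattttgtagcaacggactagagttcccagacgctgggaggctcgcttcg
*Mrpl42* promoter (chr10:95501900-95502199, minus strand): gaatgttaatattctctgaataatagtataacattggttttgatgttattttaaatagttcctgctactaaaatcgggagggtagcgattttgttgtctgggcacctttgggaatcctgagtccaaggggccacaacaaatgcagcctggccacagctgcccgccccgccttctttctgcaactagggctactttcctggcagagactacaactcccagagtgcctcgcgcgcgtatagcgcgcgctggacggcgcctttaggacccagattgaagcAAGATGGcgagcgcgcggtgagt
*Mrps25* promoter (chr6:92183974-92184273, minus strand): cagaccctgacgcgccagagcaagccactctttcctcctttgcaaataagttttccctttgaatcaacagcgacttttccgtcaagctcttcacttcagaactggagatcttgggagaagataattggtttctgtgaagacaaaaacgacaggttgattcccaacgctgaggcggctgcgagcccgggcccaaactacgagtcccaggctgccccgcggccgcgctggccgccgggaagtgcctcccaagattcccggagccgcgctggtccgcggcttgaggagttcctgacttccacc
In *Mrps21* the capitals mark the ETS core, read as its reverse complement, with its first letter at position 19 counted from the annotated start as 1. In *Mrpl42* they mark the YY1 core at position 28. The windows of *Mrpl24* and *Mrps25* held none of these letters, which says nothing of the factors themselves. A match of letters is a description and no binding was measured.

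A further feature of position was shared. Of the 78 genes, 33 (42.3%) have another protein-coding gene starting within 1000 bases on the opposite strand, against 10.8% of the 22028 protein-coding genes in the annotation. Of these neighbours 28 could be tested and 17 had a log2 fold change above 0, where 49.6% of all genes tested did. The median log2 fold change of the neighbours was 0.05. *Mrpl46* and *Mrps11* are each other's neighbour, so these counts include both of them, at 0.10 and 0.11.

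Reads were counted on all of these genes except 1. The total per library ran from 20369746 to 32734485 counts, and the 78 genes took 0.336% to 0.395% of them. The share lay between 0.367% and 0.374% in the vehicle mice, at 0.373% in Tributyrin mouse 1, at 0.336% in Tributyrin mouse 2 and at 0.395% in Tributyrin mouse 3. Thus 1 Tributyrin mouse lay below all vehicle mice and 1 above them. Counts were scaled between libraries with the TMM method of edgeR, and the values given below as normalized counts are counts divided by these factors. The filter on low counts kept 77 of the 78 genes. *Mrpl53*, a protein of the stalk region of the large subunit (chromosome 6, from 83109040 to 83109939, plus strand), had 0 counts in every library, and a count of 0 allows up to 3 reads in a library, or 0.0916 to 0.147 CPM (counts scaled to library size). All of its 50-base stretches (100%) also occur in a transcript of another annotated gene, *Gm42688*, which had 4 to 8 reads. Reads of *Mrpl53* may therefore not have been counted on it, and the limit above may not bound its level. Raw counts of the 77 genes lay between 92 and 6772, so that counting error alone was at most 10.4% of a value.

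Levels between genes were compared as RPKM, reads per kilobase of the principal transcript scaled to the size of the library. The median over the 77 genes was 27.3 RPKM, with an interquartile range of 15.8 to 51.1, while the median over all 14133 genes tested was 4.34 RPKM. *Mrpl42*, a large subunit protein found only in mitochondria (chromosome 10, from 95480805 to 95501940, minus strand), was highest at 301 ± 5.23 RPKM with vehicle and 327 ± 35.7 with Tributyrin (SD, n = 3 each). *Mrpl30* followed with a mean of 116 RPKM over the 6 mice, then *Mrpl28* with 109 and *Mrps23* with 93.3, the first 2 with bacterial counterparts. The ranges over mice of these 3 overlapped with their neighbours in the order, from 107 to 134 RPKM for *Mrpl30*, from 100 to 127 for *Mrpl28* and from 82.1 to 108 for *Mrps23*. *Mrpl42* stood apart, with its lowest mouse at 289 RPKM. At the other end were *Mrps25* with 4.42 RPKM, *Mrpl19* with 5.52, *Mrpl23* with 5.86 and *Mrpl17* with 5.87, and the range over mice of each overlapped that of its neighbour. Of the 50-base stretches of *Mrps25*, *Mrpl19* and *Mrpl23*, 73.9%, 40.3% and 76.4% also occur in other genes, and what this does to their levels was not tested. The ratio of the highest to the lowest mean was 71.0. These ranks depend on the transcript taken as the length, since 24 of the 77 genes moved by more than 10 ranks when all annotated exons of a gene were joined, with *Mrpl28* then highest and *Mrpl42* at 56.8 RPKM.

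**Figure D1:**
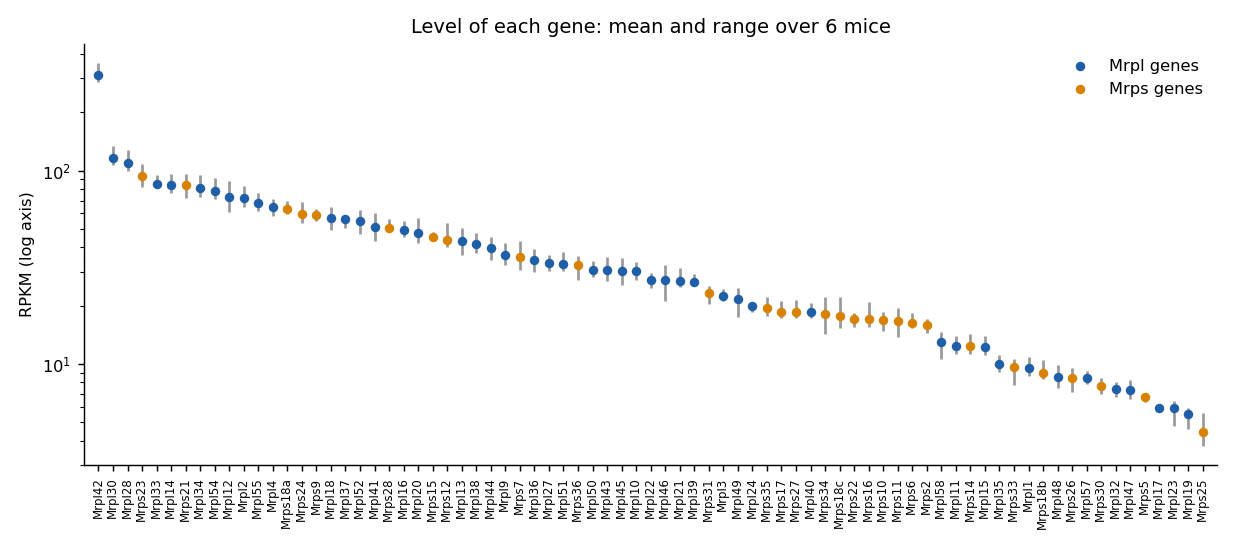
Level of the 77 genes that passed the filter, in RPKM on a log axis, in order of the mean over 6 mice. Points are means, grey lines run from the lowest to the highest mouse, blue marks *Mrpl* and orange *Mrps* genes. *Mrpl42* at 314 RPKM lies apart from the rest, which run down to 4.42 RPKM for *Mrps25*.

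With Tributyrin, the genes of the mitochondrial ribosome lay slightly higher than with vehicle as a group mean, but none passed the test and the 3 Tributyrin mice did not share a direction. The log2 fold change was above 0 for 65 of the 77 genes and below 0 for 12, where 49.6% of all genes tested were above 0. The median log2 fold change was 0.08, or 5.59% higher, beside -0.00129 over all genes tested. Single genes lay between -0.13 (*Mrpl23*) and 0.22 (*Mrps21*) on the log2 scale, with standard errors of 0.069 to 0.17. By the quasi-likelihood test of edgeR, adjusted by the Benjamini-Hochberg method over all genes, 0 of the 77 passed an FDR of 10% or of 5%, as did 0% of all genes, and the smallest adjusted p was 0.999. DESeq2 and limma-voom also gave 0. In simulated data the edgeR step recovered 12.7% of genes changed by 0.3 on the log2 scale. A count of 0 therefore does not show that changes of this size or smaller were absent. At an unadjusted p under 0.05 there was 1 gene higher (*Mrps21*) and 0 lower by each of edgeR, DESeq2 and limma-voom, while 1.97% of all genes were higher and 2.28% lower at that threshold in edgeR. The 3 mice of each group lay apart for 2 genes, *Mrps21* and *Mrps15*, both higher with Tributyrin, and for 0 genes lower. Such a separation was seen for 4.34% of all genes in the higher direction and for 4.61% in the lower. These shares do not set the genes above the background. In tissue RNA, fewer cells of a type and less RNA per cell cannot be told apart.

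The count of genes above 0 changed with the mice included. Without Tributyrin mouse 3, 31 of the 77 (40.3%) were above 0 and 46 below, with a median of -0.01, beside 50.8% of all genes above 0 in that fit, and 0 had an unadjusted p under 0.05 in edgeR. Without Tributyrin mouse 2, 70 were above 0, beside 48.3% of all genes in that fit, and the median was 0.16. An unadjusted p under 0.05 in edgeR was then found for 27, all higher. That is 35.1% of the 77 beside 4.71% of all genes. The groups then lay apart for 45 genes (58.4%), all higher, where 14.0% of all genes lay apart in the higher direction with 2 mice against 3. Still 0 passed an FDR of 10%, with a smallest adjusted p of 0.381 from edgeR with Benjamini-Hochberg adjustment. Leaving out vehicle mouse 1, 2 or 3, Tributyrin mouse 1 or Tributyrin mouse 3 gave 4, 5, 6, 5 and 5 genes that lay apart in either direction, or 5.19% to 7.79% of the 77, beside 15.4% to 19.7% of all genes in the same fits.

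Other scalings moved the zero line for all genes and left the distance to it much the same. The median of the 77 genes minus that of all genes tested was 0.08 with each of the 5 scalings. A scaling shifts all genes by nearly the same amount, so this difference could hardly change and is no separate check. The genes above 0 numbered 63 with DESeq2-type size factors, 63 with the upper quartile and 60 with library size without the mitochondrial genome. Of all genes, 48.9%, 47.1% and 43.4% were above 0 in the same fits. With library size alone, which shifted all genes by -0.07, 40 of the 77 (51.9%) were above 0 and 37 below, beside 27.5% of all genes above 0. In that fit 7 genes lay apart, 1 higher and 6 lower (9.09%), beside 11.5% of all genes.

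**Figure D2:**
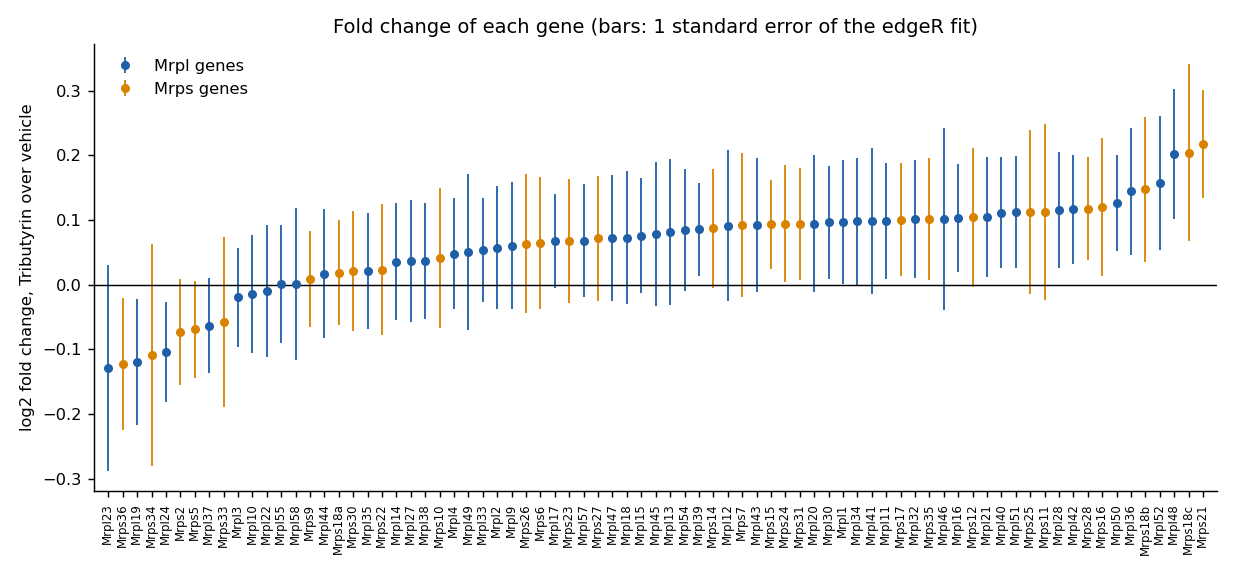
Log2 fold change of the 77 genes, Tributyrin over vehicle, in ascending order, from edgeR with TMM scaling. Bars are 1 standard error, blue marks *Mrpl* and orange *Mrps* genes. The points run from -0.13 to 0.22 with 65 above 0, and for 28 genes the bar leaves out 0, 25 of them higher.

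Most of the variation was between the Tributyrin mice. On the log2 scale, and relative to the vehicle mean of each gene, the median over the 77 genes was 0.03, 0.001 and -0.02 in vehicle mice 1 to 3, and 0.09, -0.10 and 0.22 in Tributyrin mice 1 to 3. Tributyrin mouse 3 thus lay above, and Tributyrin mouse 2 below, the range of the vehicle mice. The medians over all genes tested were within 0.01 of 0 in each of the 6 mice. Tributyrin mouse 3 was above every vehicle mouse for 68 of the 77 genes, Tributyrin mouse 1 for 47, and Tributyrin mouse 2 was below every vehicle mouse for 54. Among the Tributyrin mice the order 2, 1, 3 from low to high was found for 65 of the 77 genes (84.4%) and for 20.2% of all genes. The SD was larger with Tributyrin than with vehicle for 75 of the 77 (97.4%), beside 60.8% of all genes. The median coefficient of variation was 4.33% with vehicle and 11.1% with Tributyrin, where all genes had 8.27% and 10.8%. By this measure the genes varied less than the median gene among the vehicle mice and about as much among the Tributyrin mice. Their median level was higher than that of all genes (27.3 beside 4.34 RPKM), and the variation was not compared at equal level.

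**Figure D3:**
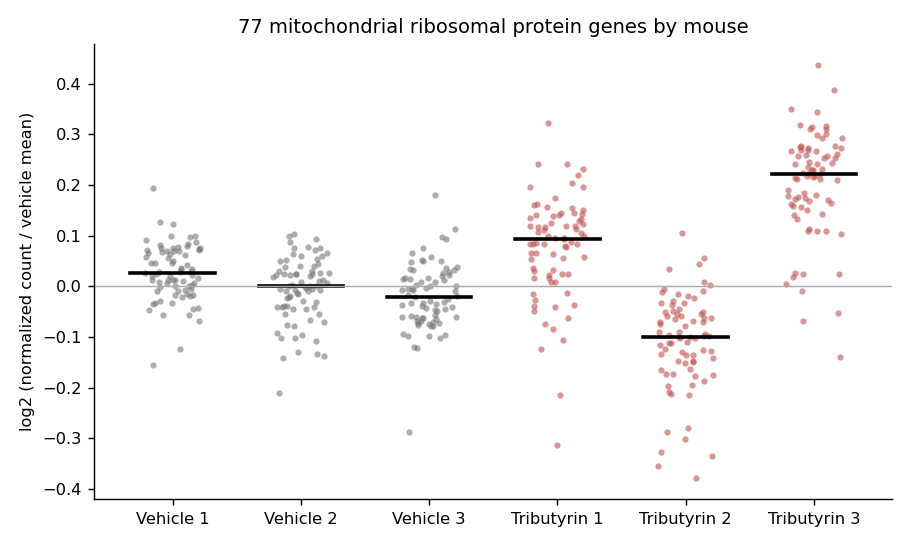
Normalized count of each of the 77 genes relative to its vehicle mean, on the log2 scale, by mouse (grey, vehicle; red, Tributyrin). Points are genes, spread sideways for legibility, and black bars are medians, which are 0.03, 0.001 and -0.02 with vehicle and 0.09, -0.10 and 0.22 with Tributyrin.

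Transcript length moved with these differences between mice. Other protein-coding genes with a principal transcript under 1 kb (678 genes) had medians of 0.07, -0.05 and 0.20 in Tributyrin mice 1 to 3, and those over 4 kb (4280 genes) had -0.03, 0.04 and -0.12. The short genes thus showed the order of the ribosomal protein genes and the long ones the opposite order. The order 2, 1, 3 was found for 54.3% of the other genes under 1 kb and for 6.33% of those over 4 kb. The ribosomal protein genes have short transcripts, with a median of 1316 bases beside 3064 for the other protein-coding genes. Within every length class their median was lower in Tributyrin mouse 2 and higher in Tributyrin mouse 3 than that of the other genes. Under 1 kb (24 genes) their medians were 0.06, -0.07 and 0.26, at 1 to 2 kb (28 genes) 0.10, -0.14 and 0.22, at 2 to 4 kb (17 genes) 0.10, -0.07 and 0.18, and over 4 kb (8 genes) 0.10, -0.11 and 0.20. In the other protein-coding genes of 2 to 4 kb the same medians were 0.004, 0.0004 and 0.007. With a correction for transcript length in each library, added after the data were seen, the medians of the 77 genes in Tributyrin mice 1 to 3 became 0.06, -0.08 and 0.12, and the order 2, 1, 3 held for 44 genes. The larger SD with Tributyrin was then found for 61 genes. These 2 counts are not set beside all genes after the correction. By length class, the corrected medians in Tributyrin mice 1 to 3 were 0.002, -0.03 and 0.07 under 1 kb and 0.07, -0.10 and 0.10 at 1 to 2 kb. They were 0.10, -0.08 and 0.19 at 2 to 4 kb and 0.13, -0.13 and 0.28 over 4 kb. In the fit with this correction 54 genes were higher and 23 lower, beside 50.3% of all genes above 0. The median log2 fold change of the 77 genes was 0.04, and 0 had an unadjusted p under 0.05 in edgeR. The groups lay apart for 8 genes (10.4%), 5 higher and 3 lower, beside 9.79% of all genes in that fit. How much of the pattern belongs to length was not tested beyond these values.

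**Figure D4:**
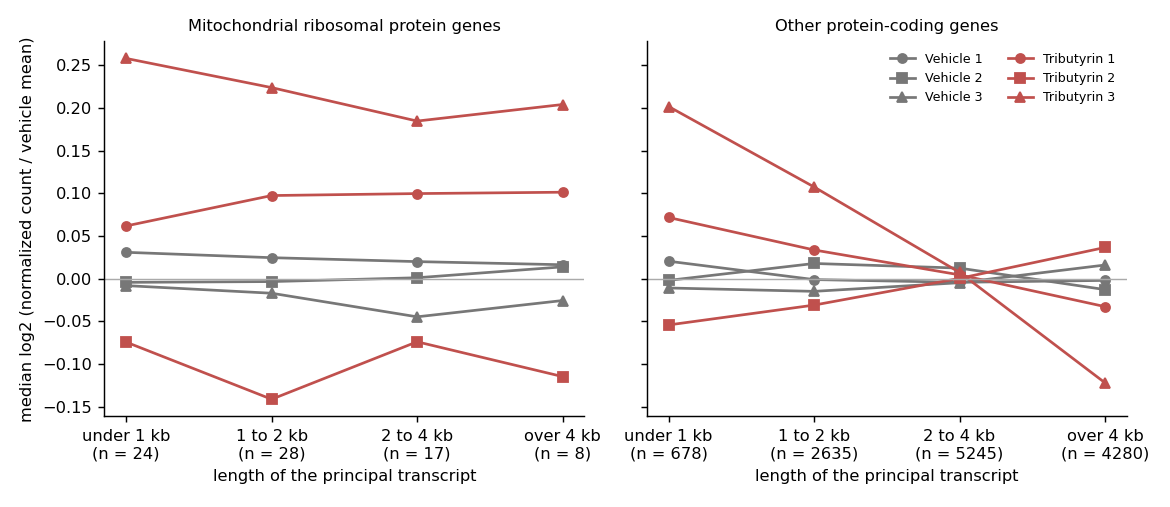
Median log2 ratio to the vehicle mean in each mouse (grey, vehicle; red, Tributyrin; marker shape, replicate), by length of the principal transcript, for the 77 ribosomal protein genes (left) and the other protein-coding genes tested (right). On the right the Tributyrin mice spread apart at short lengths and cross over at long ones, and on the left mouse 2 stays lowest and mouse 3 highest in every length class.

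Other properties of the libraries were compared with the same order. The share of counts on the mitochondrial genome was 26.5%, 23.6% and 24.1% in the vehicle mice and 27.7%, 25.9% and 28.8% in the Tributyrin mice, so that it too was lowest in mouse 2 and highest in mouse 3 of the Tributyrin group, though vehicle mouse 1 lay above Tributyrin mouse 2. The summed level of 10 ventricular cardiomyocyte markers ran from 58148 to 60126 CPM with vehicle and from 55499 to 60990 with Tributyrin, and was lowest in Tributyrin mouse 1. The sum of 6 atrial markers was 66.0 to 200 CPM with vehicle and 33.6 to 68.8 with Tributyrin, with 6 of 6 lower. That of 8 fibroblast markers was 883 to 1010 and 791 to 983 CPM, and that of 5 erythroid markers 490 to 696 and 383 to 941 CPM. For 7 endothelial, 7 macrophage, 6 smooth muscle and pericyte, and 5 Schwann cell markers the ranges of the groups overlapped. The 5 adipocyte markers summed to 0.565 to 3.00 CPM in the 6 mice and none passed the filter. The part of any of these in the results was not tested.

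In the small subunit, *Mrps21* had the lowest p of all 77 genes. It encodes a protein with a bacterial counterpart and is listed as ENSMUSG00000054312 (GRCm38, chromosome 3, from 95862634 to 95871519, minus strand). Its normalized counts were 1068, 995 and 932 in vehicle mice 1 to 3 and 1178, 1072 and 1236 in Tributyrin mice 1 to 3. All Tributyrin mice lay above all vehicle mice, though Tributyrin mouse 2 exceeded vehicle mouse 1 by only a few reads. The log2 fold change was 0.22 (standard error 0.084), with an unadjusted p of 0.0266 and an adjusted p of 0.999 from edgeR. The exact permutation test, two-sided, gave p = 0.1, the smallest that 3 mice against 3 allow. Its promoter is the one above with an ETS core. *Mrps15*, also with a bacterial counterpart, had 1063, 1105 and 1094 with vehicle and 1160, 1130 and 1191 with Tributyrin. It was named after its values were seen because its groups did not overlap. Its log2 fold change was 0.09 (standard error 0.069), with an adjusted p of 0.999 from edgeR and an exact permutation p of 0.1. *Mrps28*, also of the small subunit, had 997, 999 and 1013 with vehicle and 1116, 990 and 1160 with Tributyrin. Here the vehicle mice were close together and Tributyrin mouse 2 lay just below them.

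Among the *Mrps* genes with a log2 fold change below 0, *Mrps36*, described below, had the lowest p. Next were *Mrps5* and *Mrps2*, which have bacterial counterparts, and *Mrps34*, found only in mitochondria. *Mrps5* had 821, 818 and 805 normalized counts with vehicle and 769, 746 and 817 with Tributyrin. Only Tributyrin mouse 3 fell within the range of the vehicle mice. *Mrps2* had 894, 935 and 843 with vehicle and 852, 790 and 902 with Tributyrin, with overlapping groups. *Mrps34* had 516, 481 and 369 with vehicle and 389, 347 and 539 with Tributyrin, and was the most variable of the named genes. Of its 50-base stretches 52.4% also occur in transcripts of other genes, so its counts are uncertain. The log2 fold changes of the 3 genes were -0.07, -0.07 and -0.11, with standard errors of 0.075, 0.082 and 0.17. *Mrps36*, whose product is also a subunit of 2-oxoglutarate dehydrogenase, had 667, 580 and 624 with vehicle and 501, 616 and 600 with Tributyrin. It did not follow the order of the other genes, since Tributyrin mouse 1 was lowest. Its log2 fold change was -0.12 (standard error 0.10), and 36.2% of its stretches are shared with other genes, among them pseudogenes.

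**Figure D5:**
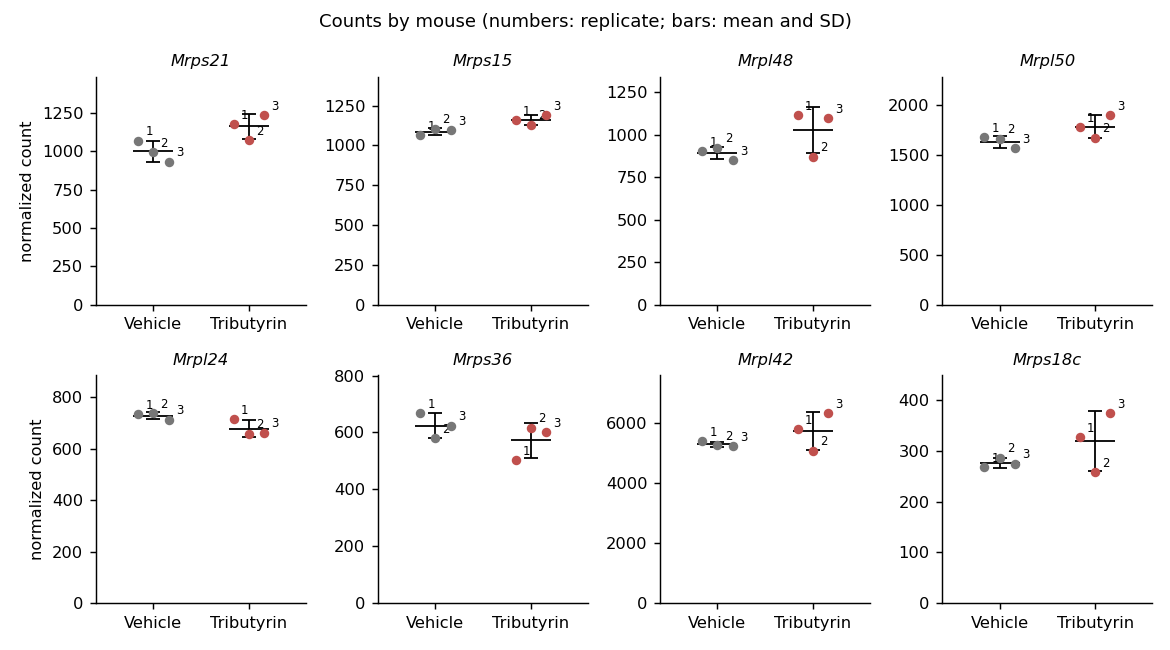
Normalized counts of 8 of the genes by mouse, on axes that start at 0 (grey, vehicle; red, Tributyrin; numbers, replicate; bars, mean and SD, n = 3). The groups lie apart for *Mrps21* and *Mrps15* and overlap in the other 6 panels, and Tributyrin mouse 2 is the lowest Tributyrin mouse in 7 of the 8, *Mrps36* being the exception.

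The 3 genes *Mrps18a*, *Mrps18b* and *Mrps18c* encode related proteins, of which the first sits in the large and the others in the small subunit. *Mrps18c* had 268, 287 and 274 normalized counts with vehicle and 327, 257 and 374 with Tributyrin, so that Tributyrin mouse 2 was the lowest of all 6 and mouse 3 the highest. *Mrps18b* had 238, 241 and 243 with vehicle and 264, 241 and 296 with Tributyrin. *Mrps18a* had 1414, 1529 and 1440 with vehicle and 1423, 1390 and 1631 with Tributyrin. The log2 fold changes were 0.20, 0.15 and 0.02 for *Mrps18c*, *Mrps18b* and *Mrps18a*, with standard errors of 0.14, 0.11 and 0.082, and the groups overlapped for each. That of *Mrps18a* fell below 0 with library size alone, with library size without the mitochondrial genome, with the length correction and without Tributyrin mouse 3. Per length *Mrps18a* was the highest of the 3, with a mean of 63.1 RPKM beside 17.7 for *Mrps18c* and 8.91 for *Mrps18b*. For *Mrps18b* 63.7% and for *Mrps18c* 22.4% of the 50-base stretches also occur in other genes.

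In the large subunit, *Mrpl48* had the largest log2 fold change. Its protein belongs to the central protuberance, the part that faces the small subunit, and the gene lies on chromosome 7 from 100545751 to 100608301 on the minus strand. Normalized counts were 903, 922 and 850 with vehicle and 1115, 871 and 1097 with Tributyrin. Tributyrin mice 1 and 3 were above all vehicle mice and mouse 2 was among them. The log2 fold change was 0.20 (standard error 0.10), with p = 0.0710 in edgeR's model across genes and an exact permutation p of 0.3. All 5 genes of the central protuberance were above 0, with a median of 0.10, with 3 above 0 under library size alone, where 27.5% of all genes were, and the lowest was *Mrpl58* at 0.001 (standard error 0.12). *Mrpl58* encodes a peptidyl-tRNA hydrolase that frees stalled ribosomes, and its sign turned in most alternatives. It had 969, 862 and 843 normalized counts with vehicle and 951, 729 and 1001 with Tributyrin.

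*Mrpl50* and *Mrpl52*, which are found only in mitochondria, and *Mrpl36*, with a bacterial counterpart, were next among those above 0. *Mrpl50* had 1676, 1661 and 1566 with vehicle and 1780, 1673 and 1900 with Tributyrin, overlapping only through Tributyrin mouse 2. *Mrpl52* had 601, 520 and 590 with vehicle and 664, 558 and 686 with Tributyrin. *Mrpl36* had 824, 824 and 726 with vehicle and 905, 770 and 955 with Tributyrin. In each of these genes Tributyrin mice 1 and 3 exceeded all vehicle mice and mouse 2 did not. The log2 fold changes were 0.13, 0.16 and 0.14, with standard errors of 0.075, 0.10 and 0.098. *Mrpl42*, the most abundant gene per length, had 5401, 5260 and 5229 with vehicle and 5813, 5083 and 6332 with Tributyrin, a log2 fold change of 0.12 (standard error 0.085). Its Tributyrin mice lay on both sides of the vehicle mice.

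Among the large subunit genes below 0, *Mrpl24* had the lowest p. It encodes a protein with a bacterial counterpart (chromosome 3, from 87919506 to 87923672, plus strand) and its promoter is printed above. Normalized counts were 736, 738 and 714 with vehicle and 715, 658 and 662 with Tributyrin. The groups overlapped only because Tributyrin mouse 1 was just above vehicle mouse 3. The log2 fold change was -0.10 (standard error 0.077), with an adjusted p of 0.999 from edgeR and an exact permutation p of 0.2. Tributyrin mouse 3 was low here, unlike in most of the 77 genes. Of the stretches of *Mrpl24* 38.0% occur in other genes, among them *Rrnad1*, which had 131 to 173 reads. *Mrpl19* had 781, 737 and 759 with vehicle and 767, 605 and 723 with Tributyrin, and *Mrpl37*, particular to mitochondria, had 2229, 2243 and 2299 with vehicle and 2182, 2001 and 2299 with Tributyrin. Their log2 fold changes were -0.12 and -0.06, with standard errors of 0.097 and 0.073. For both, Tributyrin mouse 2 lay below every vehicle mouse.

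*Mrpl23* encodes a protein at the exit of the tunnel through which the new chain leaves, and had the lowest log2 fold change, -0.13 (standard error 0.16). It had 117, 104 and 115 normalized counts with vehicle and 106, 87.3 and 114 with Tributyrin, with overlapping groups. Its shared stretches are those of the pseudogene *Mrpl23-ps1*, so its counts are uncertain. Of the 8 genes of the tunnel exit 5 were above 0, with a median of 0.04 and *Mrpl39* highest at 0.09. In the stalk, to which the factors of translation bind, 4 of 5 genes were tested and 3 were above 0, with a median of 0.09. *Mrpl11* had 974, 969 and 939 with vehicle and 1067, 903 and 1120 with Tributyrin, and *Mrpl10* had 1329, 1318 and 1463 with vehicle and 1330, 1220 and 1519 with Tributyrin. Their log2 fold changes were 0.10 and -0.01, with standard errors of 0.090 and 0.092.

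By class, 15 of 17 small subunit genes with a bacterial counterpart were above 0 (median log2 fold change 0.09), and 7 of 9 particular to mitochondria (0.07). Of the large subunit genes, 24 of 30 with a bacterial counterpart were above 0 (0.07) and 19 of 20 tested that are particular to mitochondria (0.09). The classes therefore had much the same medians, and no difference between them was tested. Of the abundant genes, *Mrpl28*, *Mrpl30* and *Mrps23* had log2 fold changes of 0.12, 0.10 and 0.07, and of the scarce ones, *Mrps25* and *Mrpl17* had 0.11 and 0.07. For 17 of the 78 genes more than 20% of the 50-base stretches occur in other genes, and without them 56 of 61 were above 0 with a median of 0.09.

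The other genes of mitochondrial translation were taken from lists chosen by function. Of 5 ribosomal proteins under other names 4 were above 0 (median log2 fold change 0.06), with *Chchd1* at 0.23 and *Gadd45gip1* at -0.05. Of 26 assembly factors 16 were above 0 (0.04), from *Ybey*, an endoribonuclease, at -0.16 to *Mrm2*, which methylates the large ribosomal RNA, at 0.31. *Mrm2* had 312, 301 and 266 normalized counts with vehicle and 371, 317 and 404 with Tributyrin, and was the only gene of its list at an unadjusted p under 0.05 in edgeR (unadjusted 0.0259 and adjusted p = 0.999 in edgeR's fit across all genes). Of 13 tested translation factors 9 were above 0 (0.06), with *Mrrf*, the recycling factor, at 0.15 and *Lrpprc*, which stabilizes mitochondrial messenger RNA, at -0.03. Of 17 mitochondrial aminoacyl-tRNA synthetases 14 were above 0 (0.04), with *Sars2* at 0.16 and *Lars2* at -0.09. Of 10 genes of mitochondrial transcription and genome upkeep 4 were above 0 (-0.01), with *Polg2* at 0.24 and *Tefm* at -0.12. Of 9 regulators of mitochondrial biogenesis 6 were above 0 (0.04), with the coactivators *Ppargc1a* at 0.12 and *Ppargc1b* at -0.29. In none of these lists did a gene pass an FDR of 10% in edgeR, and the list of assembly factors held the only one at an unadjusted p under 0.05. Of all genes tested 49.6% were above 0, and 27.5% with library size alone. With library size alone the 6 lists, in the order given, had 2 of 5, 10 of 26, 4 of 13, 5 of 17, 2 of 10 and 2 of 9 above 0.

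The ribosomal RNAs that these proteins bind did not follow the same order. *mt-Rnr1*, the small ribosomal RNA, had 47259, 39248 and 46565 normalized counts with vehicle and 47216, 50808 and 57340 with Tributyrin. *mt-Rnr2*, the large one, had 141532, 125934 and 132613 with vehicle and 140569, 157244 and 175763 with Tributyrin. In both RNAs Tributyrin mouse 1 lay within the range of the vehicle mice and mice 2 and 3 above it. The log2 fold changes were 0.22 and 0.24, with standard errors of 0.097 and 0.092, unadjusted p of 0.0428 and 0.0241 and an adjusted p of 0.999 from edgeR. Reads aligning to rRNA had been filtered by the authors, and the effect of this on these counts was not tested. Of the 13 messenger RNAs of the mitochondrial genome 8 passed the filter and all 8 were above 0, with a median of 0.22 (0.15 with library size alone). An unadjusted p under 0.05 in edgeR was found for 4 of them, all higher, beside 1.97% of all genes. The adjusted p of each of the 8 was 0.999 from edgeR. Their median includes *mt-Nd3*, which had 0, 17.9 and 19.96 normalized counts with vehicle and 0, 0 and 60.8 with Tributyrin and is not read further. The other 5, such as *mt-Co2* and *mt-Atp6*, were listed at or near 0 in every library.

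The order of the Tributyrin mice was also seen in 2 related sets of genes. The 80 cytosolic ribosomal protein genes tested had medians of 0.10, -0.05 and 0.27 in Tributyrin mice 1 to 3, relative to the vehicle mean on the log2 scale, and the 36 nuclear genes of complex I had 0.12, -0.06 and 0.24. Their median log2 fold changes were 0.11 and 0.10, with 77 of 80 and 35 of 36 above 0, and 59 and 29 with library size alone, where 27.5% of all genes were above 0. The assembly factors had 0.05, -0.03 and 0.13 and the regulators of biogenesis 0.06, 0.02 and -0.04. The mitochondrial ribosomal protein genes were the lowest of these sets in Tributyrin mouse 2, and no difference between the sets was tested. The other protein-coding genes under 1 kb, taken by length alone, had 0.07, -0.05 and 0.20 in the same mice. The same order was thus also seen in genes not chosen by function. The sets were not compared at equal transcript length, and the part of length or function in the shared order was not tested.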

How the data were processed

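Total RNA of heart ventricle was sequenced as stranded mRNA libraries from 6 mice, 3 per group. Before deposit the authors had trimmed adapter sequence, filtered by quality, set rRNA reads aside, aligned the remainder and counted reads on genes, and they deposited raw counts per Ensembl gene without normalization. The submitters' processing notes name cutadapt 1.13, STAR, HTSeq 0.6.1p1, DESeq2 1.14.1 and the build mm10. Neither the release of the annotation nor the setting for strand is given in the sources used here, so reads of genes that overlap on opposite strands may not have been told apart. Symbols, positions and lengths were taken from GENCODE M21 (GRCm38), in which 54165 of 54232 identifiers matched. Promoters came from RefSeq.

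Groups were taken from the sample titles. Counts were compared with edgeR 4.0.16 (R 4.3.3) over all 14133 genes that passed filterByExpr (minimum count 10, minimum total 15), with TMM scaling, the quasi-likelihood test, no covariate and Benjamini-Hochberg adjustment at an FDR of 10% and 5%. Standard errors were taken as the log2 fold change divided by the root of the F statistic. Fold changes are Tributyrin over vehicle. The labels name mice, and p-values measure the spread between these 6 libraries. Alternatives were other scalings and filters, DESeq2 1.42.0, limma-voom (limma 3.58.1), a robust prior, the replicate number as a block, and each mouse left out. The correction for transcript length (a lowess curve per library with a span of 0.3, used as offsets), the exclusion of genes that share sequence and the joined exon length were added after the data were seen. So was the search of promoters for cores. Shared sequence was measured as the share of the 50-base stretches of the principal transcript found in a transcript of another gene on either strand. RPKM used the principal transcript and TMM-scaled library sizes. The edgeR step was tested on simulated data, in 3 simulations. It recovered 12.7%, 46%, 83.3% and 94% of genes changed by 0.3, 0.5, 1 and 2 on the log2 scale, with 14.7% false calls. Each gene was drawn on its own and the changed genes came from all genes tested. These shares need not hold for genes that move together between mice, as the ribosomal protein genes did. The highest log2 fold change of the ribosomal protein genes was 0.22, and changes under 0.3 were not simulated.

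The genes and lists were chosen with earlier results of these data known. Genes named were the 8 with the lowest p in each direction, the 4 highest and 4 lowest by RPKM, *Mrps36* and the *Mrps18* genes, any gene not past the filter, and the extremes of the stalk, tunnel exit and central protuberance. From each other list the extremes were named, and *Mrps15*, the messenger RNAs of the mitochondrial genome and the genes that share sequence were named outside this rule. No pair of libraries differed as little as sampling noise, with a chi-square per degree of freedom of 6.67 to 28.2. Protein sequences were not used here.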

Additional observations from a re-analysis of the deposited data

How the results depend on the processing

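At an FDR of 10%, 0 of the tested mitochondrial ribosomal protein genes passed in each of the 17 alternatives run for that count. The median log2 fold change lay between 0.003 and 0.09 under the alternatives that kept all mice, and between -0.00890 and 0.16 when each mouse was dropped, lowest without Tributyrin replicate 3. The count at an unadjusted p under 0.05 was 1, and became 0 with library size alone, 0 with the correction for transcript length, 2 with no filter on low counts, and 0 to 27 when 1 mouse was dropped. The count of genes whose groups lay apart was 2 (2.60%, beside 8.94% of all genes). It became 7 with library size alone (9.09% beside 11.5%), 8 with the correction for transcript length (10.4% beside 9.79%), 3 with library size without the mitochondrial genome (1 higher and 2 lower, beside 9.10% of all genes), and 4 to 45 with each mouse left out, where 15.4% to 27.2% of all genes lay apart. With the upper quartile it was 2, 1 higher and 1 lower. The causes were not tested.

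Same-numbered mice showed correlations of their deviations of 0.21, 0.04 and 0.01 and were not taken as pairs. With the replicate block 0 of the 77 genes passed an FDR of 10% and 1 had an unadjusted p under 0.05 in edgeR. The median was 0.07, beside -0.003 over all genes, with 63 of 77 above 0. The share of all genes above 0 in that fit is not given here.

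Of 458 alternative values of the 27 named genes that were tested, 434 kept their direction and 24 reversed. *Mrpl58*, near 0 at the outset, became -0.000158 with DESeq2-type size factors in edgeR, -0.0728 with library size alone, -0.0185 with library size without the mitochondrial genome, -0.0062 with the upper quartile, -0.00293 with a mean CPM of at least 5, -0.0126 with limma-voom, -0.0100 with the replicate block and -0.00553 with the correction for transcript length, and ran from -0.0837 to 0.13 with each mouse left out. *Mrps18a* became -0.0567 with library size alone, -0.00179 with library size without the mitochondrial genome and -0.0428 with the correction for transcript length. *Mrps23* and *Mrpl17* became -0.00867 and -0.00619 with library size alone. With each mouse left out, *Mrpl10* ran from -0.10 to 0.0569, *Mrps34* ran from -0.31 to 0.0192, *Mrps23* ran from -0.0268 to 0.165, *Mrps25* ran from -0.0407 to 0.24 and *Mrps18a* from -0.0530 to 0.0623. No named gene had an adjusted p under 0.381 in any of these alternatives. Depth limits *Mrpl23* most, with counting error of up to 10.4% of a value.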
